A study of Mus musculus with 27 samples.

Results

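Bone-forming osteosarcomas of a mouse p53 model were ranked by osteocalcin, and the 5 primaries with the highest Bglap were set against the 5 with the lowest. The members were chosen from measured levels: of the 18 primary tumours, 14 had an Ibsp level above 11 on the log2 scale of the authors' deposited matrix, and the ranking by Bglap was made within those 14. The comparison therefore holds 10 of the 27 arrays of the series, with 4 primaries of middle rank and 4 with Ibsp not above 11 left out. The 5 tumours at the top are called Bglap-high here and the 5 at the bottom Bglap-low.

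The study put total RNA of 12 metastatic and 6 localized primaries, 7 metastases from lung and 2 from liver on 1 array each. All mice were bred on C57BL/6 and carried Col2.3-Cre, a Cre transgene driven in the osteoblast lineage by a rat Col1a1 promoter, together with either a floxed p53 allele or the LSL-p53R172H allele, a point mutant that Cre switches on. The labels do not say which p53 allele a given tumour carried, nor the age of the mice, and both groups share the Cre. Bglap-high holds 2 localized primaries (RF-43 and RF-44) and 3 that gave metastases (CRE-155, RF-89 and CR-113A), whereas all 5 Bglap-low tumours (RF-212, RF-104, RF-379, RF-229 and CR-147) gave metastases. That share, 3 of 5 against 5 of 5, gave p = 0.444 in a two-sided Fisher exact test. Both localized tumours were already in the same group, so no other split of these labels into groups of 5 could give a smaller p. The test therefore cannot decide whether the groups differ in this label. Between 44.2% and 46.1% of probes were detected in Bglap-high and between 45.3% and 46.9% in Bglap-low, a difference of means of -1.14 percentage points (exact permutation test, two-sided, p = 0.0397, and 0.0794 adjusted over 2 array measures). The log2 background was 5.56 to 6.28 in Bglap-high and 5.52 to 6.18 in Bglap-low (exact permutation p = 0.849).

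Osteocalcin is a small protein of the bone matrix whose gla residues, made by a vitamin K dependent carboxylase, bind calcium. It is secreted late in the life of an osteoblast, after the collagen of the osteoid has been laid down and around the time that mineral forms, and some of these cells are then buried in the matrix as osteocytes. Bone sialoprotein, the product of Ibsp, is another mineral-binding matrix protein and comes on with mineralization. RUNX2 and SP7 are the transcription factors on which the osteoblast lineage depends, and RUNX2 is known to bind the osteocalcin promoter through the letters ACCACA.

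The promoters of both genes used for the choice, and that of Lig1, which had the smallest p of the DNA replication genes described further on, are shown so that the elements named can be read. They come from RefSeq on build GRCm38.p6 and run from 250 bases before to 50 bases after the listed start. For Bglap (chr3:88384417-88384716, minus strand) and Ibsp (chr5:104299037-104299336, plus strand) capitals mark ACCACA on either strand. For Lig1 (chr7:13278576-13278875, plus strand, 1 of 3 listed starts) capitals mark TTCGCGC or TTGGCGC on either strand, letters of the type bound by E2F factors, which drive genes of DNA synthesis.
Bglap promoter: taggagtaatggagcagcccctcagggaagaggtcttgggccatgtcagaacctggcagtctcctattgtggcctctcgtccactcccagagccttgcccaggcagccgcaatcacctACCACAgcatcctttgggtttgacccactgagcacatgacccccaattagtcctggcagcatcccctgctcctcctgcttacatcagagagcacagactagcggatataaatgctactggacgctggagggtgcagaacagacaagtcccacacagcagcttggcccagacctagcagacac
Ibsp promoter: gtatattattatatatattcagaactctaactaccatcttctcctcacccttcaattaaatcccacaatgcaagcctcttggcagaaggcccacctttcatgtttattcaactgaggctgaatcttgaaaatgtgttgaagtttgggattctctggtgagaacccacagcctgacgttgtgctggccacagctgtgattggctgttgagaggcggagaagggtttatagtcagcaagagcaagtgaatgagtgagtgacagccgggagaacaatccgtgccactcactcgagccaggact
Lig1 promoter: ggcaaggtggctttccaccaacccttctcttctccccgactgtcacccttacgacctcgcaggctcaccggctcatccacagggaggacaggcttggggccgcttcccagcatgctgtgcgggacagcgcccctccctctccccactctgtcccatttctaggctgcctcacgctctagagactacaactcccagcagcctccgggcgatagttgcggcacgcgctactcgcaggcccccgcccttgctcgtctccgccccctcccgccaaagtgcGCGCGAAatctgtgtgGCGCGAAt

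The Bglap window held 1 match to ACCACA and the Ibsp window 0, while 16.8% of the 32851 promoter windows of this length held one. The printed Lig1 window held 2 matches to the E2F letters and was shown for having the most, since the windows of the other listed starts held 0 and 1. These letters stand in 3.89% of all windows and in 7.92% of the 8963 tested genes that have a window. A match describes letters only.

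Ibsp divided the primaries into separate ranges. On the authors' deposited scale it was 14.1 to 15.6 in the 14 bone-forming tumours and 5.51 to 7.72 in the other 4. Bglap ran through the 14 with 15.66 in RF-43 at the top and 9.50 in CR-147 at the bottom, a span of 6.16 log2 units or 71.3-fold. Both boundaries of the groups lie between near-equal tumours. The last Bglap-high tumour, CR-113A, had 12.83 and the first one left out, RF-364, had 12.82. At the other end RF-212, inside Bglap-low, had 11.92 and FC-279, left out, had 11.94. These values chose the members and carry no test.

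All further levels are background-corrected, quantile-normalized log2 intensities, with the tumours of each group in falling order of Bglap. Bglap itself was 15.50, 14.52, 14.17, 13.25 and 13.11 in Bglap-high and 12.21, 10.70, 10.44, 9.80 and 9.80 in Bglap-low. Its near-identical paralog Bglap2, which probes cannot be assumed to separate from Bglap, was 15.64, 15.50, 15.19, 14.65 and 14.40 in Bglap-high, against 13.69, 12.18, 11.69, 10.66 and 11.43 in Bglap-low. The paralog thus followed the ranking. Ibsp did not: it was 14.13, 14.82, 15.21, 15.27 and 14.88 in Bglap-high and 15.31, 14.18, 14.74, 14.82 and 14.94 in Bglap-low, with overlapping ranges.

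Genes of mineral deposition and of osteocytes did not follow the ranking by osteocalcin as a group, although some, such as Mepe, varied as widely. The osteoid collagen list leaned higher in Bglap-high, with 19 of 21 tested members higher and a median of 0.49. No gene of the whole array passed: limma called 0 of 11079 genes at an adjusted p under 0.05 (0% called), and the smallest adjusted p was 0.258. At an unadjusted p under 0.05, 453 genes stood higher in Bglap-high (4.09%) and 516 lower (4.66%). When arrays were scaled to a common median instead of quantile normalized, the split was 265 higher and 613 lower, with a median of all genes of -0.0686. The groups did not overlap for 89 genes that were higher (0.803%) and 70 that were lower (0.632%), and the mean was higher for 49.9% of genes and lower for 50.1%. These shares are the background against which the lists are read. The median log2 difference over all genes, Bglap-high minus Bglap-low, was -0.0008. The groups are ranks of a gene measured on the same arrays, so each p describes association with that ranking.

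Among the transcription factors, Sp7 (osterix) was 13.29, 12.27, 13.12, 13.06 and 12.78 in Bglap-high and 12.95, 11.62, 13.73, 12.91 and 13.67 in Bglap-low. The groups overlapped throughout, with a log2 difference of -0.07 ± 0.38 (SE; 95% interval -0.91 to 0.77). Atf4, a stress-responsive factor that supports amino acid supply and osteocalcin transcription in osteoblasts, differed by 0.07 ± 0.22 (interval -0.43 to 0.56). Dlx5, a homeobox factor of osteoblasts, was detected on 8 of 10 arrays and differed by -0.56 ± 0.47. Of 15 tested members of the osteoblast transcription factor list, 10 had a higher and 5 a lower mean in Bglap-high, with a median of 0.28. The smallest p in that list belonged to Foxo1, lower by -0.77 ± 0.28 (adjusted p = 0.532), and Prrx1, a factor of mesenchymal progenitors, higher by 1.28 ± 0.52 (adjusted p = 0.562). Runx2 is not among the names used and was not analysed here.

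Type I collagen, the bulk protein of osteoid, is built from the products of Col1a1 and Col1a2. Col1a1 was 15.42, 14.84, 15.27, 15.40 and 15.29 in Bglap-high and 15.57, 14.23, 14.82, 15.09 and 14.88 in Bglap-low. RF-104 was lowest and RF-212, also Bglap-low, was highest, and the difference was 0.33 ± 0.25 (interval -0.22 to 0.88). Col1a2 was 15, 13.88, 14.79, 14.71 and 14.46 in Bglap-high and 14.33, 11.95, 14.85, 13.91 and 13.60 in Bglap-low, a difference of 0.84 ± 0.47 (adjusted p = 0.639).

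The wider list of osteoid collagens and the enzymes that process them leaned one way although no member passed. Of 21 tested members, 19 had a higher mean in Bglap-high and 2 a lower one, with a median of 0.49. An unadjusted p under 0.05 was found for 4, all higher, beside 4.09% of all genes. Loxl1, which crosslinks elastin and collagen, averaged 12.11 ± 0.84 in Bglap-high and 10.53 ± 1.01 in Bglap-low (SD, n = 5 each), a difference of 1.58 ± 0.51 (adjusted p = 0.532). CR-113A, at 10.67, lay inside the Bglap-low range, and the other 4 Bglap-high tumours lay at 12.06 to 12.61. Col3a1, a fibrillar collagen of looser connective tissue, was 12.69, 10.72, 11.67, 11.13 and 11.17 in Bglap-high and 9.77, 10.70, 9.22, 11.35 and 9.47 in Bglap-low, a difference of 1.37 ± 0.46 (adjusted p = 0.532). Bmp1, the procollagen C-proteinase, differed by 0.80 ± 0.32 and Col5a1, which sets collagen fibril width, by 0.74 ± 0.30. Their adjusted p were 0.554 and 0.562, and both were chosen after their values were seen. Without RF-212, 8 members had an unadjusted p under 0.05, without CRE-155 7, and without RF-43, RF-89 or RF-104 2 higher members each.

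The machinery of mineral deposition gave overlapping groups. Alpl, the alkaline phosphatase that frees phosphate for mineral, was 12.38, 12.56, 12.90, 12.86 and 12.82 in Bglap-high and 13.38, 12.55, 12.73, 12.45 and 13.70 in Bglap-low, a difference of -0.26 ± 0.27 (interval -0.84 to 0.33). Sparc (osteonectin) differed by 0.27 ± 0.18. Ifitm5, a membrane protein of mineralizing osteoblasts, was 11.01, 11.29, 13.02, 12.96 and 12.01 in Bglap-high, so that the tumours with the most Bglap had the least Ifitm5 of the group. It was 12.87, 11, 12.46, 12.58 and 13.34 in Bglap-low, and the difference was -0.39 ± 0.50. Phospho1, a phosphatase that raises phosphate inside matrix vesicles, spanned 7.45 to 9.96 in Bglap-high and 7.77 to 10.77 in Bglap-low, a difference of -0.27 ± 0.66. Smpd3, a sphingomyelinase that acts with it, differed by -0.52 ± 0.49.

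Of the 20 tested members of the mineralized matrix list, 10 had a higher and 10 a lower mean in Bglap-high, with a median of 0.03. The members with the smallest p were phosphate transporters that went opposite ways. Slc20a2 (Pit2) had measured means that differed by 0.95 (adjusted p = 0.554), and Slc20a1 (Pit1) was lower by -0.63 ± 0.29 (adjusted p = 0.569). Slc20a2 was detected on 4 Bglap-high arrays and 1 Bglap-low array. It thus met the detection filter mainly through Bglap-high, and the size of its difference is not resolved. The other Slc20a1 probe pointed the other way. The mean level of the list was 9.64 to 10.43 in Bglap-high, 9.39 to 10.48 in Bglap-low and 9.91 to 10.33 in the middle tumours. All were above the 7.20 to 7.53 of the 4 primaries with Ibsp not above 11. The ranges of Bglap-high and Bglap-low overlapped nearly throughout. Spp1 (osteopontin) was not analysed here.

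**Figure D1:**
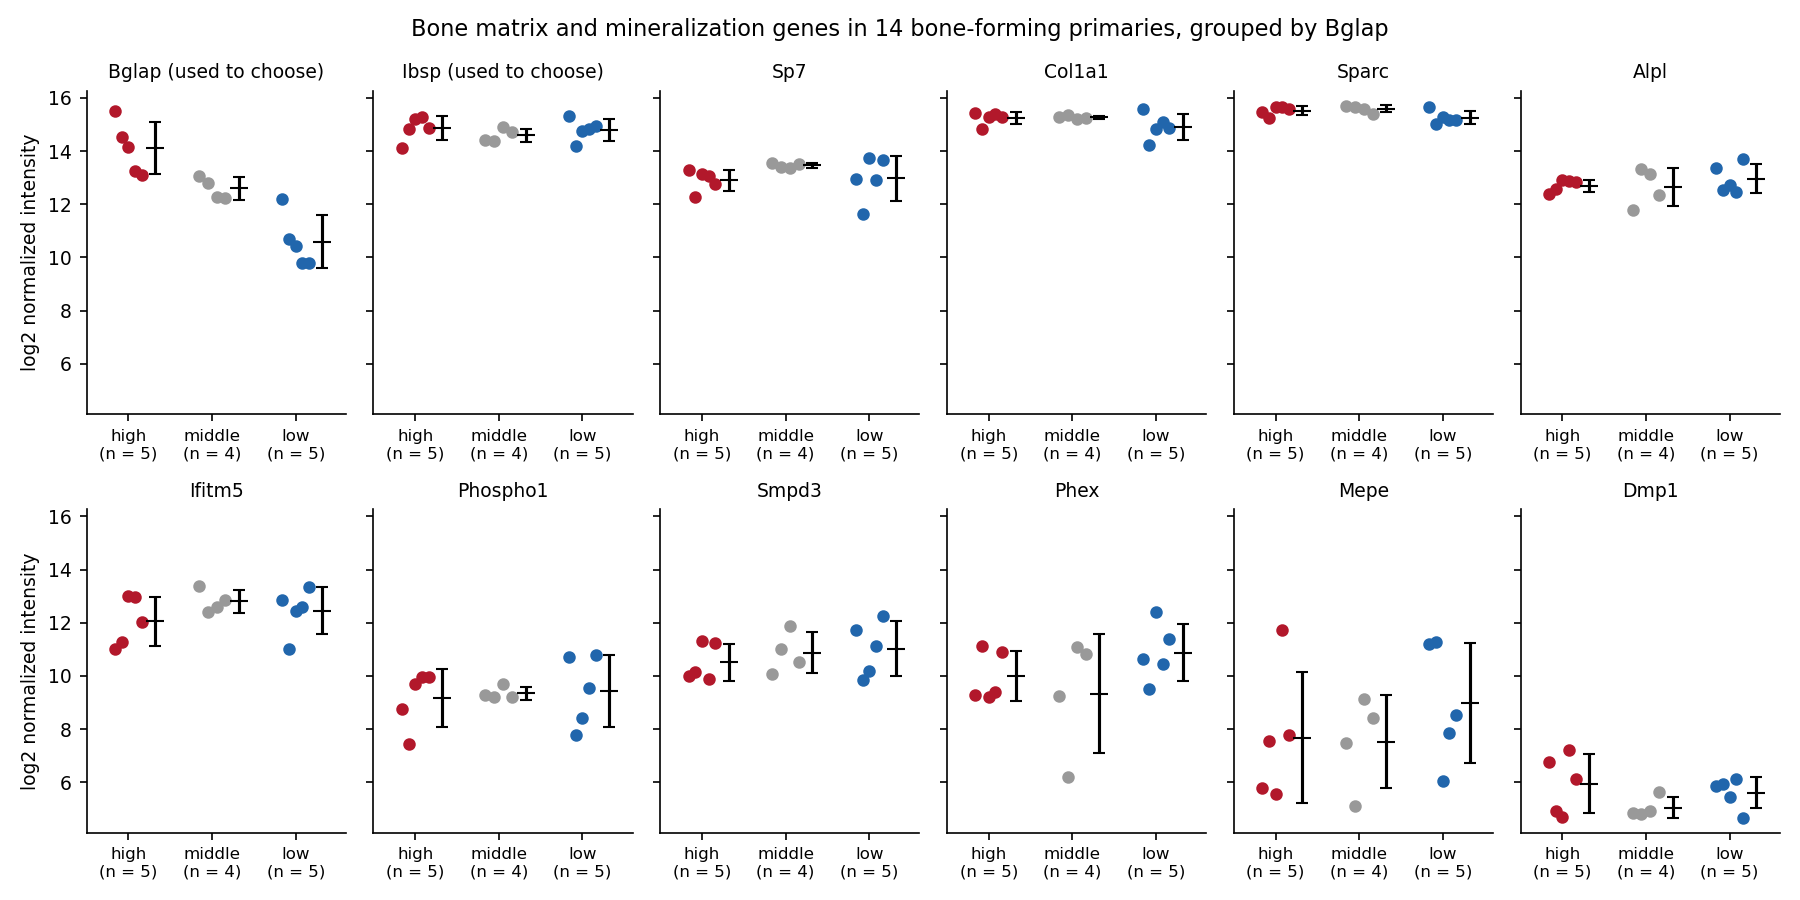
Log2 normalized intensity of 12 genes of bone formation in 14 bone-forming primaries, 1 point per tumour, with the mean and SD of each group as a bar with whiskers. Bglap, which chose the groups, averages 14.11 in Bglap-high and 10.59 in Bglap-low, while the groups overlap for the 10 genes that did not choose them.

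Genes of the osteocyte, the cell that a buried osteoblast becomes, did not follow osteocalcin as a group. Of 23 tested members, 11 had a higher and 12 a lower mean in Bglap-high, with a median of -0.01. Dmp1, a matrix phosphoprotein of young osteocytes, was dim: 6.75, 4.91, 4.70, 7.21 and 6.14 in Bglap-high and 5.85, 5.93, 5.44, 6.14 and 4.67 in Bglap-low, with 3 and 4 arrays detecting it and a difference of 0.34 ± 0.49. Mepe, a phosphoglycoprotein of osteocytes, varied most of the bone genes named, at 5.79, 7.54, 5.55, 11.73 and 7.79 in Bglap-high and 11.21, 11.29, 6.06, 7.84 and 8.52 in Bglap-low. High and low tumours occurred in both groups, and the difference was -1.30 ± 1.26 (interval -4.07 to 1.46). Among the metastatic primaries alone it was 0.04.

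Phex, a peptidase of osteoblasts and osteocytes that restrains Fgf23, was 9.29, 11.12, 9.20, 9.40 and 10.89 in Bglap-high and 10.62, 9.51, 12.40, 10.45 and 11.40 in Bglap-low, a difference of -0.89 ± 0.56 (interval -2.12 to 0.33). Pdpn, which shapes the processes of early osteocytes, differed by -0.50 ± 0.58. Sost (sclerostin), made by mature osteocytes, was detected on 0 of the 10 arrays and in 1 middle tumour. Its highest level among the 14 was 6.40, in RF-364. Fgf23, the phosphate hormone of osteocytes, was detected on 3 Bglap-high arrays and 1 Bglap-low array, at 4.61 to 5.40 over the 10 tumours, and was not tested.

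The osteocyte list members with the smallest p were Slc38a10 and Mmp14, whose groups did not overlap. Slc38a10, an amino acid transporter, was 8.69, 8.81, 9.04, 9.17 and 9.31 in Bglap-high and 8.57, 7.59, 6.80, 7.55 and 8.46 in Bglap-low (difference 1.21 ± 0.33, adjusted p = 0.459). Mmp14, a membrane-bound collagenase that osteocytes need to form their processes and that other stromal cells also make, was 14.97, 13.38, 14, 13.91 and 13.97 in Bglap-high and 13.26, 13.20, 13.01, 13.13 and 13.22 in Bglap-low. Its difference was 0.88 ± 0.26 (adjusted p = 0.498).

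Stromal and signalling genes varied more. Postn (periostin), a matrix protein of the periosteum and of healing stroma, was 9.09, 8.32, 8.52, 8.90 and 7.68 in Bglap-high and 6.48, 8.18, 5.97, 6.12 and 5.24 in Bglap-low. RF-104 was the only Bglap-low tumour within the Bglap-high range, and the difference was 2.10 ± 0.48 (adjusted p = 0.417). In the same list Vcam1, an adhesion molecule of stroma and vessels, stood at -0.76 ± 0.38 (adjusted p = 0.597). Of its 2 other probes, 1 pointed the other way. That list of lining cells and early stroma was split, with 10 of 20 tested members higher, 10 lower and a median of 0.09.

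In the Wnt list, which holds ligands, receptors, targets and inhibitors of a pathway that promotes bone formation, 15 of 25 tested members had a higher mean and 10 a lower one in Bglap-high, with a median of 0.20. Of these, 4 had an unadjusted p under 0.05, beside 4.09% of all genes. All 4 were higher: Lef1 and the inhibitors Apcdd1, Nkd2 and Sfrp1. Without the detection filter there were 2. Median scaling gave 3 higher and 2 lower ones, and the other normalizations 4 higher ones. Nkd2 and Sfrp1 were chosen after their values were seen. Without RF-379 or RF-229 there were 2 members at an unadjusted p under 0.05, and without RF-104 4 higher and 3 lower ones. Apcdd1, a secreted-signal inhibitor and target of the pathway, was 11.43, 7.86, 9.85, 9.90 and 7.37 in Bglap-high and 6.08, 8.20, 6.20, 7.77 and 7.81 in Bglap-low (difference 2.07 ± 0.74, adjusted p = 0.532). Lef1, a nuclear effector, was detected on 4 Bglap-high arrays and 1 Bglap-low array, so it met the detection filter mainly through Bglap-high. Its measured means differed by 1.19 (adjusted p = 0.536), with Bglap-low near background, so the size is not resolved. The highest values of Apcdd1 and Lef1 among the 14 were in localized tumours. RF-191, of middle rank, had 12.84 for Apcdd1 and 8.71 for Lef1, and RF-43 had 7.62 for Lef1. The localized tumour CR-93 had the lowest Apcdd1, 5.15. Among metastatic primaries alone the Wnt median was 0.02.

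Among hormone and growth factor genes, the vitamin D and parathyroid hormone list leaned higher, while the BMP and TGF-beta list was divided. Of 10 tested genes of the vitamin D and parathyroid hormone response, 8 had a higher mean and 2 a lower one, with a median of 0.31. Its smallest p were for Nr4a2, an orphan nuclear receptor induced by parathyroid hormone, at 0.49 ± 0.25 (adjusted p = 0.605), and Tnfsf11 (RANKL), the osteoblast-lineage ligand that drives osteoclast formation, at 0.50 ± 0.33 (adjusted p = 0.681). Vdr, the receptor through which vitamin D regulates osteocalcin, differed by 0.05 and was chosen after its value was seen. Of 26 BMP and TGF-beta genes, 12 were higher and 14 lower, with a median of -0.05, led by Nog, a BMP antagonist, at -1.05 ± 0.34 and Ltbp1, which anchors latent TGF-beta, at 1.03 ± 0.36. Both had an adjusted p of 0.532, and Nog was detected on 2 Bglap-high and 5 Bglap-low arrays.

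Igf2, a fetal growth factor, was 8.56, 9.76, 10.34, 12.37 and 8.78 in Bglap-high and 10.57, 11.80, 12.20, 13.82 and 11.63 in Bglap-low. RF-89 was the only Bglap-high tumour above the lowest of Bglap-low, and the difference was -2.04 ± 0.74 (adjusted p = 0.532). Fgfr3, an FGF receptor of cartilage and bone, differed by 0.95 ± 0.36 (adjusted p = 0.542). The FGF, IGF and phosphate hormone list had a median of 0.09 over 17 genes, 11 higher and 6 lower.

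DNA replication genes stood lower in Bglap-high almost throughout. Of 25 tested members, 24 had a lower mean in Bglap-high, with a median log2 difference of -0.73, and 16 had an unadjusted p under 0.05, all lower, beside 4.66% of all genes. None passed the adjusted threshold. Lig1, the ligase that joins Okazaki fragments, was 10.15, 9.98, 9.16, 9.20 and 9.59 in Bglap-high and 10.43, 10.82, 10.73, 11.10 and 10.24 in Bglap-low. The groups did not overlap, and the difference was -1.05 ± 0.26 (adjusted p = 0.424). Pold1, the catalytic subunit of polymerase delta, was 9.73, 9.88, 9.12, 9.21 and 9.60 in Bglap-high and 9.79, 10.71, 10.41, 11.13 and 10.45 in Bglap-low (difference -0.99 ± 0.27, adjusted p = 0.459). Subunits of the MCM helicase also stood lower: Mcm5 differed by -1.17 and Mcm2 by -1.07, and Cdc6, which loads the helicase, by -1.22. These 3 were chosen after their values were seen. The exception was Rfc3, a clamp loader subunit, at 0.05.

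The mean level of the replication list was 9.25, 9.41, 8.67, 8.35 and 9.38 in Bglap-high and 9.71, 9.59, 9.98, 10.10 and 9.41 in Bglap-low. The middle tumours had 8.83, 9.12, 9.01 and 9.72, and the 4 primaries with Ibsp not above 11 had 9.07 to 9.90. RF-44 and RF-89 were the lowest of Bglap-high, while CRE-155 and CR-113A came next to CR-147 of Bglap-low. CRE-155, at 9.411, lay just above CR-147, at 9.406, so the groups overlapped narrowly. Within metastatic primaries alone, 3 against 5, 24 of 25 members were again lower, with a median of -0.68 and 8 at an unadjusted p under 0.05. These are 8 of the same 10 arrays. With the tumours just outside each boundary exchanged for those just inside, the median was -0.76 and 20 members had an unadjusted p under 0.05. Of 21 tested members with a promoter window, 8 (38.1%) held the E2F letters shown for Lig1, beside 7.92% of tested genes. The share was 2 of 7 in the osteoblast transcription factor list and 1 of 12 in the mitosis list.

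Genes of the cell cycle and mitosis ran in the same direction. All 15 tested members had a lower mean in Bglap-high, with a median of -0.72. Of these, 7 had an unadjusted p under 0.05, beside 4.66% of all genes. The 7 became 4 without RF-44 and without RF-89. Ccna2 (cyclin A2), which drives S phase and entry into mitosis, was 6.61, 6.64, 5.77, 6.00 and 6.52 in Bglap-high and 7.03, 6.78, 7.54, 7.23 and 6.86 in Bglap-low. The groups did not overlap, and the difference was -0.78 ± 0.24 (adjusted p = 0.532). Cdc20, which activates the anaphase-promoting complex, differed by -0.76 ± 0.26 (adjusted p = 0.532). Within metastatic primaries alone all 15 were again lower, with a median of -0.58, and 1 had an unadjusted p under 0.05. In bulk tissue, fewer cells of a type and less RNA per cell cannot be told apart, so these levels do not count dividing cells.

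**Figure D2:**
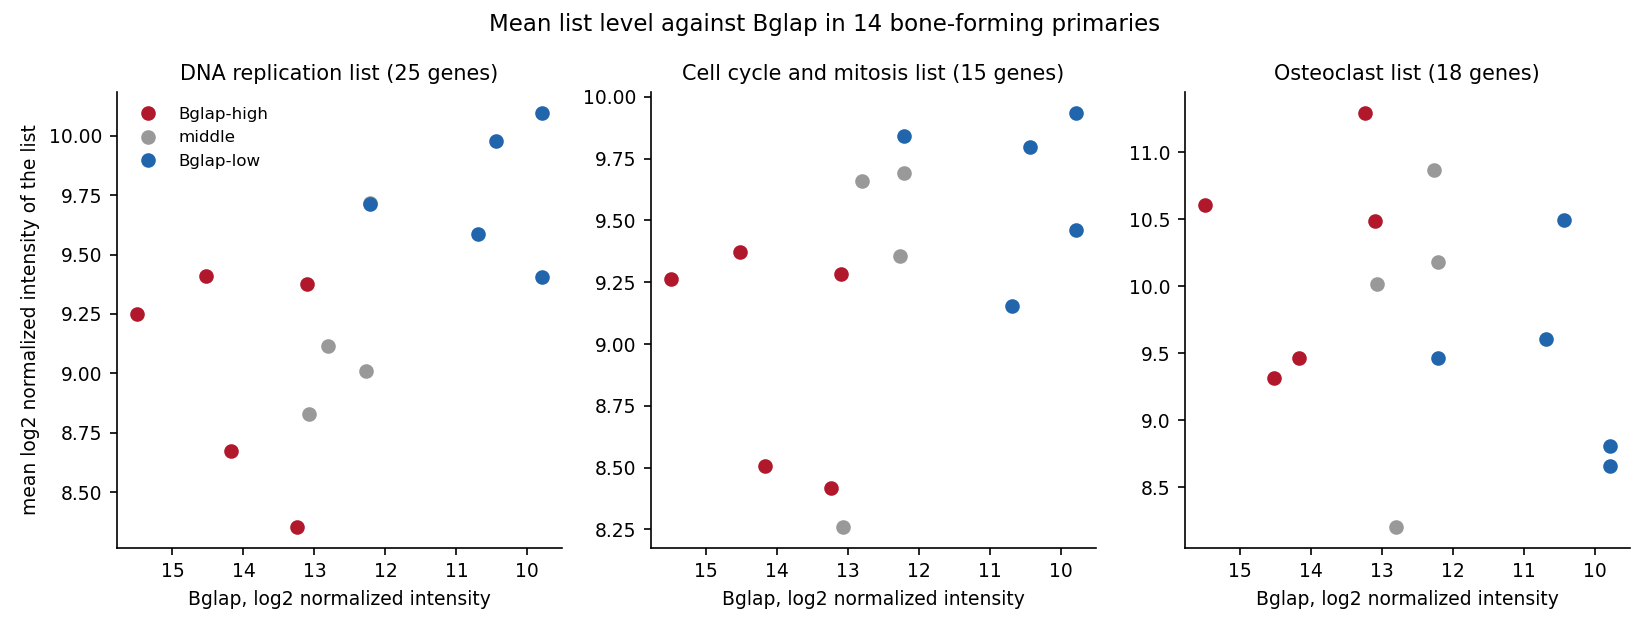
Mean log2 normalized intensity of the DNA replication, mitosis and osteoclast lists against Bglap in 14 bone-forming primaries, 1 point per tumour, with Bglap falling from left to right. The 5 Bglap-high tumours lie at 8.35 to 9.411 for replication and the 5 Bglap-low tumours at 9.406 to 10.10, a narrow overlap. The osteoclast list runs the other way with wide overlap.

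Osteoclasts are the bone-resorbing cells that live on mineralized matrix, and their genes stood higher in Bglap-high. All 18 tested members had a higher mean there, with a median of 0.84, and 3 had an unadjusted p under 0.05, beside 4.09% of all genes. Mitf, a transcription factor of osteoclasts and pigment cells, was detected on 5 Bglap-high and 2 Bglap-low arrays and differed by 1.06 ± 0.30 (adjusted p = 0.489). Jdp2, a factor needed for osteoclast formation, was 11.30, 10.35, 10.41, 11.56 and 10.94 in Bglap-high and 9.97, 9.73, 10.76, 9.46 and 9.18 in Bglap-low, with RF-379 inside the Bglap-high range (difference 1.09 ± 0.34, adjusted p = 0.532). Ctsk (cathepsin K), the main matrix protease of these cells, was 15.37, 14.56, 14.88, 15.29 and 15.30 in Bglap-high and 14.35, 14.77, 15.39, 13.78 and 12.89 in Bglap-low. It differed by 0.84 and was chosen after its values were seen.

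The mean level of the osteoclast list was 10.61, 9.32, 9.47, 11.30 and 10.49 in Bglap-high and 9.47, 9.61, 10.50, 8.81 and 8.66 in Bglap-low. CRE-155 and RF-44 lay below RF-379 and RF-104, so the group ranges overlapped. The middle tumours ran from 8.20 to 10.87. The list's median was 0.92 within metastatic primaries alone. Its 3 members with an unadjusted p under 0.05 became 11 without CRE-155, 10 without RF-379, 9 without RF-44 and 6 without RF-104. They became 2 without RF-43, CR-113A, RF-89, CR-147 or RF-229.

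Blood-forming marrow genes stood lower in Bglap-high. All 12 tested neutrophil and marrow myeloid genes had a lower mean, with a median of -1.94. Of these, 2 had an unadjusted p under 0.05, beside 4.66% of all genes. The mean level of that list was 6.36, 8.40, 8.45, 8.77 and 7.59 in Bglap-high and 7.46, 13.28, 11.84, 7.24 and 9.15 in Bglap-low. RF-104 and RF-379 stood far above the rest, while RF-212 and RF-229 lay within the Bglap-high range. Without RF-104 the median was -1.12, and without RF-379 it was -1.37, with 0 members at an unadjusted p under 0.05 in both. Without RF-212 or RF-229 there were 7 such members, and leaving out any other tumour left 0 or 1. The number was 0 without the detection filter. It was also 0 with the localized or metastatic label, or the prefix of the specimen name, as a covariate. Other normalizations gave 1 or 2. Chil3, a secreted lectin of myeloid cells, differed by -2.10 ± 0.88 (adjusted p = 0.562), and Elane (neutrophil elastase) by -2.58 ± 1.12 (adjusted p = 0.564).

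All 12 tested erythroid genes also had a lower mean in Bglap-high, with a median of -1.15. Of these, 3 had an unadjusted p under 0.05, beside 4.66% of all genes. The mean level of the erythroid list was 7.06 to 9.69 in Bglap-high and 8.02 to 10.71 in Bglap-low. Slc4a1 (band 3), the anion exchanger of red cells, was 4.82, 8.30, 7.01, 10.23 and 5.28 in Bglap-high and 6.51, 11.13, 12.35, 8.81 and 10.77 in Bglap-low (difference -2.79 ± 1.20, adjusted p = 0.564). Trim10, a factor of late red cell maturation, differed by -1.43 ± 0.60 (adjusted p = 0.562). Within metastatic primaries alone the erythroid median was -0.77. Without RF-212 9 erythroid members had an unadjusted p under 0.05, without RF-89 7 and without RF-229 5. Without RF-43, CR-113A or RF-379 there were 0, and without RF-44, CR-147 or RF-104 there was 1. There was also 1 without the detection filter or with the prefix of the specimen name as a covariate. With the localized or metastatic label as a covariate there were 0, and other normalizations gave 1 to 6. Both marrow lists moved in the same direction as the replication and mitosis genes, and their part in that difference was not tested.

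The 14 tested interferon-stimulated genes all had a lower mean in Bglap-high, with a median of -0.83. Of these, 4 had an unadjusted p under 0.05, beside 4.66% of all genes. The list's mean level was 7.98, 8.32, 7.93, 9.13 and 8.16 in Bglap-high and 9.72, 10.11, 7.88, 9.09 and 8.75 in Bglap-low, and RF-379 was the lowest of all 10. Ifit2, an antiviral effector, differed by -1.16 ± 0.37 and Rsad2 (viperin) by -1.39 ± 0.46, both with an adjusted p of 0.532. With the tumours at the boundaries exchanged, which puts FC-279 in the place of RF-212 and RF-364 in that of CR-113A, the median was -0.33 and 12 of 14 members were lower. Without RF-104 the median was -0.51, and without RF-379 it was -1.17, with 10 members at an unadjusted p under 0.05. There were 7 such members without RF-89 and 2 without RF-44, CRE-155, CR-113A, CR-147, RF-212 or RF-104.

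**Figure D3:**
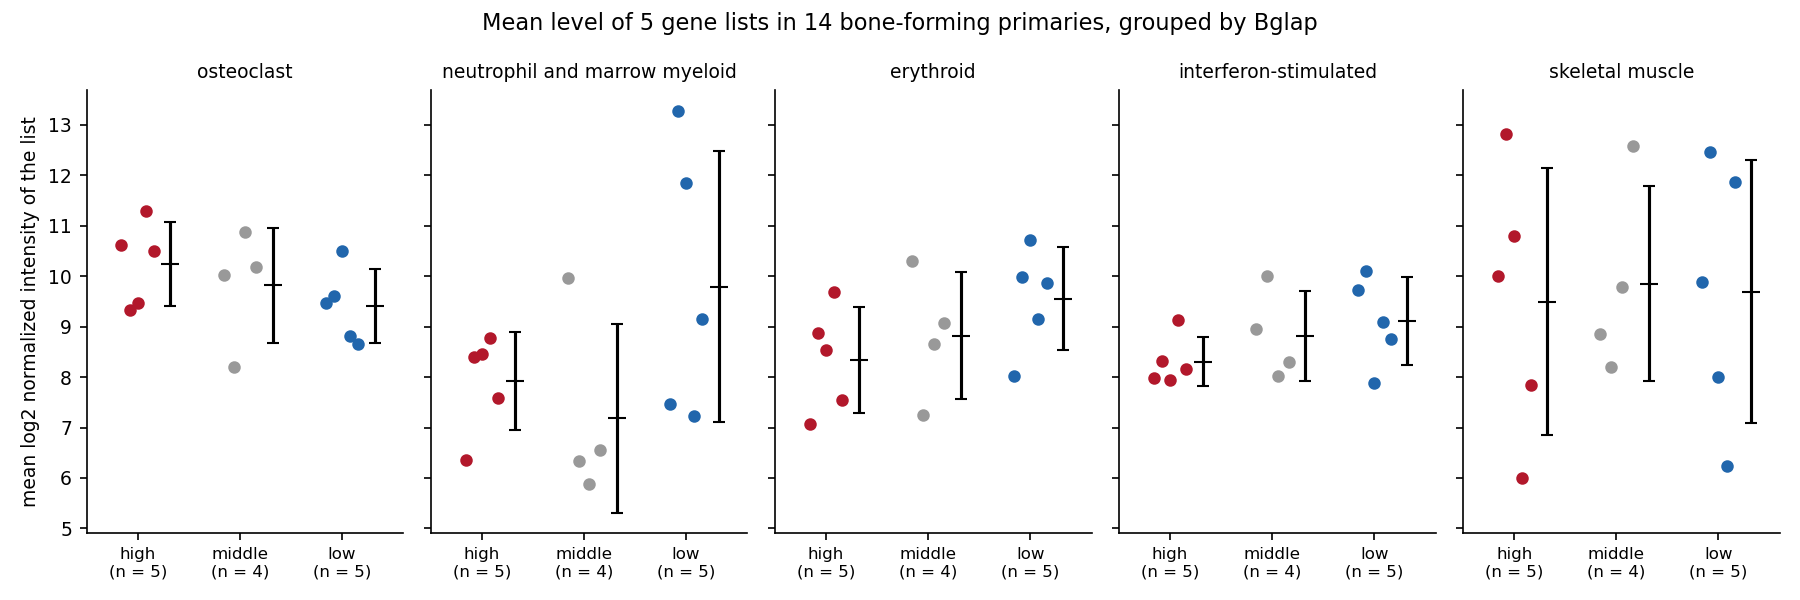
Mean log2 normalized intensity of 5 gene lists in 14 bone-forming primaries, 1 point per tumour, with the mean and SD of each group as a bar with whiskers. RF-104 at 13.28 and RF-379 at 11.84 set the Bglap-low myeloid mean, and the skeletal muscle list spans 6.00 to 12.82 in Bglap-high and 6.24 to 12.46 in Bglap-low.

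Macrophage genes were divided. Of 16 tested, 6 had a higher and 10 a lower mean in Bglap-high, with a median of -0.30 and a mean level of 9.33 to 10.48 in Bglap-high and 9.21 to 10.81 in Bglap-low. Cd163, a haemoglobin scavenger receptor of resident macrophages, was 9, 10.24, 9.67, 8.82 and 9.20 in Bglap-high and 7.99, 8.63, 8.26, 6.95 and 7.84 in Bglap-low. The groups did not overlap (difference 1.45 ± 0.35, adjusted p = 0.424). Adgre1, the general macrophage marker, went the other way at -0.96 ± 0.37 (adjusted p = 0.545).

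Markers of muscle, vessels, fat and tendon gave smaller medians. The skeletal muscle list had a median of -0.28 over 17 genes, with Eno3 at -0.43 ± 0.55 and Tnnc1 at 0.58 ± 0.99. The endothelial list had -0.12 over 17 genes, with Robo4 at -0.33 ± 0.20 and Cdh5 at -0.27 ± 0.21. The adipocyte list had 0.09 over 9 genes, with Car3 at -1.08 ± 0.60 and Pparg at -0.58 ± 0.33. The tenocyte list had -0.27 over 5 genes, with Scx at 0.46 ± 0.35 and Egr1 at -0.38 ± 0.31.

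Lymphoid and skin lists gave mixed members. The T and NK cell list had a median of -0.54 over 12 genes, 3 with a higher and 9 with a lower mean in Bglap-high. Its smallest p were for Cd247 at 1.01 ± 0.46 and Thy1 at -1.22 ± 0.75. Cd3d, Cd3e and Cd3g, chosen after their values were seen, stood at -1.21 ± 0.87, -1.30 ± 0.92 and -1.06 ± 0.78. The B and plasma cell list had -0.07 over 6 genes, with Sdc1, which epithelial and stromal cells also make, at 1.32 ± 0.35 and Cd79b at -1.35 ± 0.53. Keratinocyte genes had 0.63 over 5 genes, with Krt10 at 1.34 ± 0.44 and Cdh1 at -0.62 ± 0.30, and 4 of the list's genes were detected on none of the 10 arrays. Of 20 cartilage genes on the array, 7 were tested and 5 were detected on none of the 10 arrays. The cartilage median was 0.29, with Comp at -1.33 ± 0.56 and Sox5 at 0.94 ± 0.47. No gene of these lists passed, and the smallest adjusted p among them was 0.453, for Sdc1.

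The other lists of cell state gave medians between -0.33 and 0.15. The secretory pathway list, which covers the export of matrix proteins, had a median of 0.15 over 24 genes, with Atf3 at -1.20 ± 0.40 and Dnajc3, a chaperone partner of the endoplasmic reticulum, at 0.77 ± 0.28 (both adjusted p = 0.532). The hypoxia and glycolysis list had -0.29 over 16 genes, with Adm at -1.12 ± 0.38 and Pfkl at -0.99 ± 0.47. The oxidative phosphorylation list had 0.08 over 20 genes, with Ndufa1 at 0.47 ± 0.20 and Ndufa4 at 0.35 ± 0.17. The immediate early list, which also holds Atf3, had -0.33 over 13 genes, with Myc at -1.05 ± 0.56. The housekeeping list had -0.14 over 8 genes, with Hprt at -0.24 ± 0.17 and Gapdh at -0.18 ± 0.19.

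**Figure D4:**
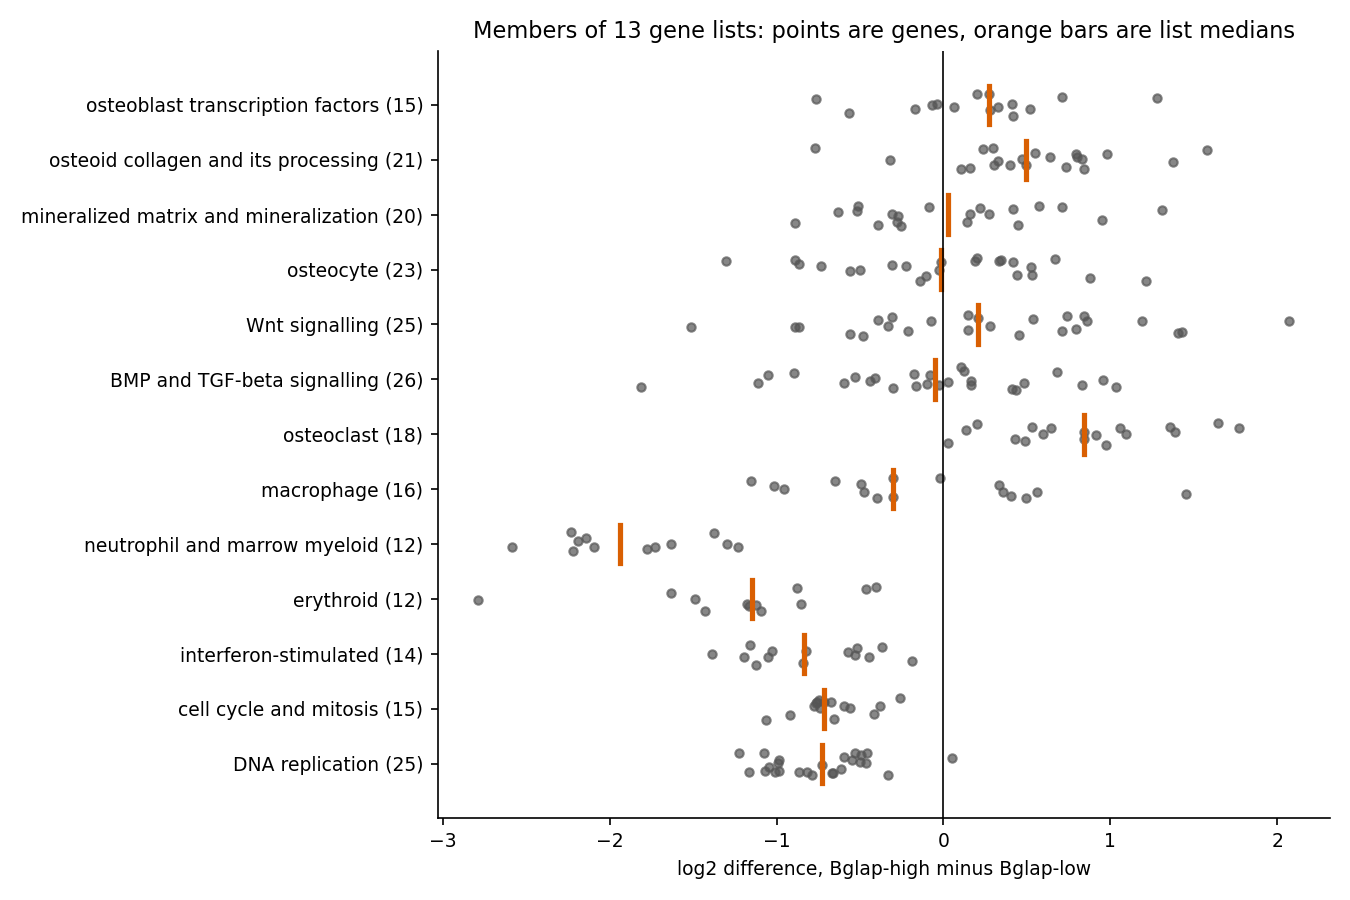
Log2 difference, Bglap-high minus Bglap-low, of each tested member of 13 gene lists (points, with the number tested beside the name) and the list medians (orange bars). Mineralized matrix and osteocyte genes centre on 0, the osteoclast members lie to the right of 0 and the myeloid, erythroid, interferon, mitosis and all but 1 of the replication members to the left.

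Outside the lists, the genes with the smallest p are given although none passed. On the lower side was Mmp12, the macrophage metalloelastase, at 4.99, 5.11, 5.59, 6.74 and 6.27 in Bglap-high and 7.91, 8.50, 8.32, 9.83 and 8.18 in Bglap-low. The groups did not overlap, 3 Bglap-high arrays detected it against all 5 Bglap-low arrays, and the difference was -2.81 ± 0.42 (adjusted p = 0.258). The middle tumours had 7.89, 6.56, 7.06 and 5.84, so that RF-191 and FC-279 lay within the Bglap-high range and RF-364 and CR-93 between the groups. With Bglap as a continuous measure over the 14 tumours Mmp12 passed (adjusted p = 0.0205), as did Vrk2, a kinase of the vaccinia-related family (-1.45 ± 0.36 between the groups, adjusted p = 0.424; 0.0153 as a continuous measure). Vrk2 was chosen after its values were seen, and its 1 other probe pointed the opposite way. In the macrophage list given above, 10 of 16 members had a lower mean.

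Rras2, a small GTPase of the Ras family, was 6.95, 6.75, 7.35, 6.82 and 7.50 in Bglap-high and 8.56, 8.45, 9.48, 9.65 and 10.27 in Bglap-low, without overlap (difference -2.21 ± 0.35, adjusted p = 0.258). Of the middle tumours, RF-364 with 10.19, FC-279 with 9.96 and CR-93 with 8.50 lay within the Bglap-low range, and RF-191 with 7.19 lay within that of Bglap-high. Fbxo27, a substrate adaptor for glycoprotein ubiquitination, was detected on 1 Bglap-high array, that of RF-44, and on 5 Bglap-low arrays, and its measured means differed by -2.38. The other 4 Bglap-high tumours lay at 4.46 to 4.59, not above background, so the size of the difference is not resolved, also without RF-212, where the gene passed (adjusted p = 0.0149). Hirip3, a histone-binding protein, differed by -1.32 ± 0.25 and Snx5, a sorting nexin of endosomes, by -1.04 ± 0.21, and all 3 had an adjusted p of 0.375.

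On the higher side, Ormdl3, an endoplasmic reticulum protein that restrains sphingolipid synthesis, was 12.09, 11.89, 12.13, 12.06 and 12.29 in Bglap-high and 11.60, 10.62, 10.28, 10.80 and 11.02 in Bglap-low (difference 1.23 ± 0.24). Agt (angiotensinogen) was 10.57, 9.55, 9.47, 11.07 and 10.08 in Bglap-high and 7.76, 6.87, 9.47, 6.33 and 6.82 in Bglap-low, with RF-379 level with RF-44 (difference 2.69 ± 0.55). Chst2, a sulfotransferase of glycan chains, differed by 1.61 ± 0.32, Camk2a, a calcium-dependent kinase subunit, by 1.45 ± 0.28. Lrriq3 was detected on 5 Bglap-high arrays and 1 Bglap-low array, and its measured means differed by 1.22, with Bglap-low near background. All 5 had an adjusted p of 0.375.

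One further gene was chosen after its values were seen. Piwil2, a PIWI protein of the germline small RNA pathway, was 4.67, 4.98, 9.14, 5.13 and 4.84 in Bglap-high and 9.57, 7.91, 9.32, 9.27 and 10.49 in Bglap-low. RF-44 alone of Bglap-high was at the Bglap-low level, and only its array detected the gene in that group. The measured means differed by -3.56 over all 10 tumours (adjusted p = 0.417). Without RF-44 the gene passed (adjusted p = 0.0100), but then no Bglap-high array detected it, and it was at least 16.7-fold lower in Bglap-high, set against the lowest detected signal of each array. The middle tumours divided, with 9.28 in RF-364 and 10.45 in FC-279 against 5.85 in RF-191 and 5.23 in CR-93.

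Of the 7 lung metastases, 6 came from bone-forming primaries and can be set beside their own primary. Bglap was 12.19 in the lung metastasis of CRE-155 against 14.52 in its Bglap-high primary. Among specimens with a Bglap-low primary it was 15.11 in the lung metastasis of RF-212 against 12.21 in the primary, 9.35 against 10.44 in RF-379 and 6.72 against 9.80 in CR-147. For the middle primaries it was 10.68 in the lung metastasis of RF-364 against 13.08, and 11.13 in that of FC-279 against 12.22. Bglap was thus lower in 5 lung metastases and higher in 1, and RF-212 changed from a Bglap-low primary to the highest lung metastasis. The liver metastasis of CR-147 had 9.01.

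Ibsp moved far less in the same pairs. It was 14.37 in the lung metastasis of CRE-155 against 14.82 in the primary, and over the 6 pairs the lung metastasis differed from its primary by -0.45 to 0.62 log2 units. In the lung metastasis of RF-212, where Bglap was 2.91 log2 units above the primary, Lig1 was 9.13 against 10.43 in the primary and Mcm5 was 9.35 against 11.24. In CR-147, where the difference of Bglap was -3.08, Lig1 was 9.88 against 10.24 and Mcm5 11.34 against 11.64. Both genes were lower in the lung metastasis in all 6 pairs, by -1.31 to -0.01 for Lig1 and -1.89 to -0.08 for Mcm5, whichever way Bglap differed. Not every replication gene did so. Mcm2 was higher in the lung metastasis of CRE-155 (9.84 against 9.63) and CR-147 (10.03 against 9.74), but lower in the other pairs. The mean of the replication list was 9.25 against 9.41 in CRE-155, 9.16 against 9.72 in FC-279 and 8.10 against 9.71 in RF-212. It was 8.43 against 8.83 in RF-364, 9.37 against 9.41 in CR-147 and 9.982 against 9.976 in RF-379. Each pair is 1 specimen with 1 array per tissue, so no test was made. Cdh1, a gene of the keratinocyte list, was 8.82 to 10.3 in these 6 lung metastases and 5.37 to 6.44 in their primaries. Whether other tissue in the lung samples has a part in the differences was not tested.

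**Figure D5:**
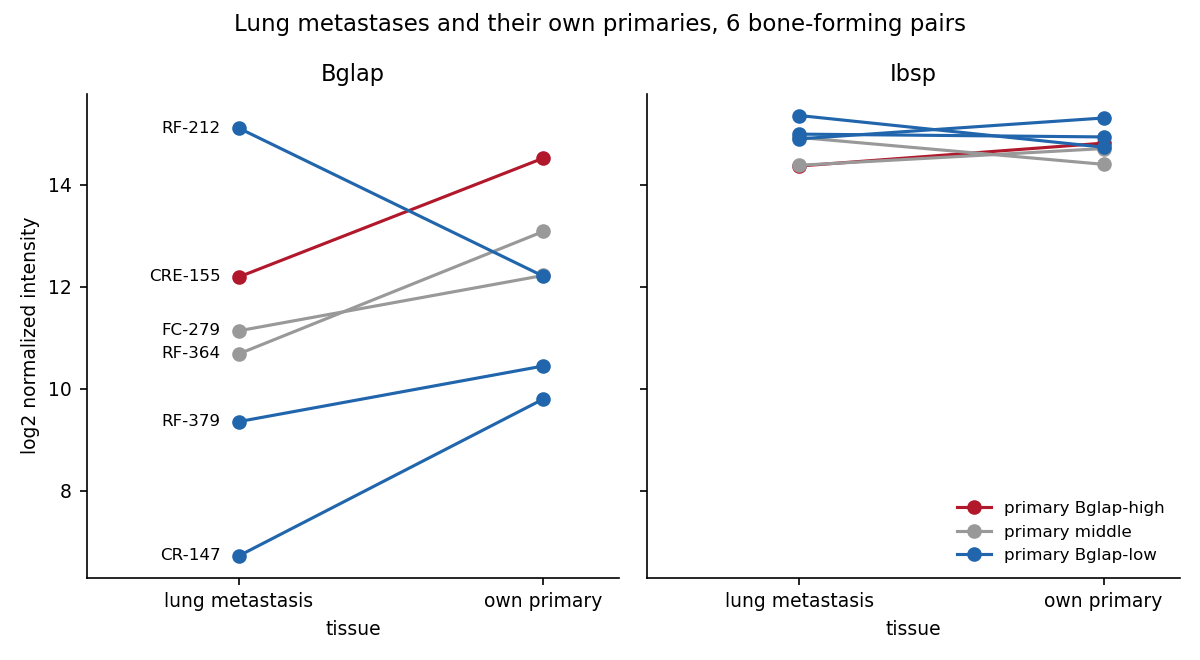
Log2 normalized intensity of Bglap and Ibsp in 6 lung metastases and their own bone-forming primaries, joined by specimen and coloured by the class of the primary. Bglap is below the primary in 5 pairs and above it in RF-212, while all 12 Ibsp values lie at 14.37 to 15.36.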

How the data were processed

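Total RNA of each tissue was measured on a single-colour Illumina bead array. Per the file headers, the deposited bead files give an average signal per probe, an unnormalized intensity. They also hold a deposited detection score, from which a detection p-value was taken as 1 minus the score. The deposited matrix holds log2 values that lay within 0.606 of a plain quantile normalization made here, and it served for choosing the groups. BeadStudio is among the tools per the submitters' processing notes, with no version.

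Intensities were corrected with neqc (limma 3.58.1, R 4.3.3, offset 16) and quantile normalized over 27 arrays. Probes were named from the platform annotation (34885 of 45281 had 1 symbol), with the probe of highest mean used per gene. Genes detected (p under 0.05) on at least 5 of the 10 arrays were tested with lmFit and eBayes, two-sided, Benjamini-Hochberg adjusted. Bglap, Bglap2 and Ibsp were left out. The fit was also run on simulated data whose changes were larger than nearly all differences given here. That run cannot say how often differences of the sizes given here would be found.

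The members and the 29 gene lists (587 genes, 439 tested) were chosen with earlier results of these data known. Named genes are the 5 with the smallest p in each direction, a fixed set of bone genes and the 2 smallest p of each list. The labels do not say that each specimen is a separate animal, so p-values measure the spread between specimens, and the number of arrays limits precision. Alternatives covered normalization, filters, probe choice, covariates, array weights, other groupings and leaving out each tumour. Figures used matplotlib 3.10.9.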

Additional observations from a re-analysis of the deposited data

Results flagged for a closer look

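In 9 of 230 checks of single tumours within a group of 5, 1 tumour stood far from the other 4 by Dixon's test, and chance alone flags about 1 in 20. In Bglap-high, RF-44 had the highest Fbxo27 (5.46, others 4.46 to 4.59) and Cd79b (7.59, others 5.39 to 5.77) and the lowest mean of the oxidative phosphorylation list (12.53, others 12.84 to 12.91). CRE-155 had the lowest Col1a1 (14.84, others 15.27 to 15.42), the highest Eno3 (12.38, others 10 to 10.21) and the lowest mean of the secretory pathway list (9.30, others 9.84 to 10.01). CR-113A had the lowest Loxl1 (10.67, others 12.06 to 12.61). In Bglap-low, CR-147 had the highest Lrriq3 (5.61, others 4.85 to 5.02) and RF-379 the highest Trim10 (8.91, others 6.57 to 7.07).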

How the results depend on the processing

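Over 25 alternatives, 0 genes passed in limma in either direction, except that 2 lower genes passed with Bglap as a continuous measure over 14 primaries (Mmp12 and Vrk2). Leaving out each tumour gave between 0 and 1 lower genes (Piwil2 without RF-44, Fbxo27 without RF-212). Mepe, whose difference was -1.30, came to 0.0351 with the localized or metastatic label as a covariate and within metastatic primaries alone. Both settings give the same difference by design, since every localized tumour among the 10 is Bglap-high. The restriction to metastatic primaries and the exchange at the boundaries were chosen after seeing the data. Sign changes of the 10 named genes smaller than their SE were not counted. Genes with an unadjusted p under 0.05 numbered 453 higher and 516 lower, 271 and 275 with the label covariate, 260 and 248 within metastatic primaries, and 681 and 695 of 19054 without the detection filter. Median scaling gave 265 and 613 and moved the median of all genes to -0.0686. Over the alternatives the list median ranged from -0.87 to -0.59 for replication, -0.95 to -0.48 for mitosis, 0.58 to 1.12 for osteoclasts, -0.25 to 0.19 for mineralized matrix and -0.11 to 0.24 for osteocytes. No paired analysis was possible because the 10 tumours are different specimens with no shared replicate numbers. A slide block was not run, since the slide was not given in the sources used here. Genes near background, such as Dmp1, have little range to differ in.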
